A study of Homo sapiens with 18 samples.

Results

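ETV6 carrying R369W was given to MEG-01 cells labelled as ETV6 knockout, and messenger RNA was compared with the same knockout cells given an empty vector (EV). The comparison rests on 6 of the 18 libraries of the series: 3 of knockout cells with lentiviral ETV6-R369W and 3 of knockout cells with lentiviral EV, all harvested on day 3. MEG-01, which the labels spell Meg01, is an established line from a human leukemia of megakaryocyte precursors. The groups used beside them held 3 libraries each: knockout cells with lentiviral ETV6, and cells of the WT genotype label, called unedited here, with EV, ETV6 or R369W. Every library in the series therefore came from cells given a lentiviral vector, and every knockout library carried the ETV6 edit. The labels do not say whether the knockout cells are 1 clone, how the edit was made, or what the replicate numbers 1, 2 and 4 in the knockout titles stand for. Nothing says that the 3 libraries of a group came from separate cultures. The p-values measure the spread between these libraries, part of which may be technical. Another part recurred across vectors. In deviations from group means, knockout EV and ETV6 libraries of the same number correlated at 0.76 to 0.85. The source of this spread was not tested.

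ETV6 belongs to the ETS family of transcription factors and acts mainly as a repressor. Its carboxy-terminal ETS domain reads DNA sites built around the letters GGAA, and its amino-terminal pointed domain lets the protein join with itself and with partners. R369W lies in the ETS domain, and inherited changes of this kind are known to cause low platelet counts and a raised risk of leukemia. In megakaryocytes, the platelet precursors, and in other blood cells, ETV6 is known for keeping genes silent.

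The 6 libraries held 12836688 to 18927506 gene reads, with the highest total in knockout EV replicate 1. Unaligned reads were 0.527% to 0.698% of the knockout EV libraries, 0.279% to 0.316% of knockout R369W and 0.289% to 0.324% of knockout ETV6, so the EV libraries stood apart from both ETV6 forms. In unedited cells they were 0.586% to 0.809% with EV, 0.296% to 0.337% with R369W and 0.301% to 0.349% with ETV6. Library numbers ran from 13 to 18 for EV and from 1 to 12 for the other vectors. Vector and library number therefore cannot be told apart in any comparison over EV. Of the markers that check the cell line, ITGA2B, the platelet integrin alpha chain, lay at 999.7 to 1662 CPM (the usual unit of counts scaled to library size) and ITGB3, its partner, at 20.2 to 125 CPM, whereas PF4, a platelet chemokine, had 0 reads in all 6. In bulk RNA, fewer cells expressing a gene and less RNA per cell cannot be told apart.

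Reads of ETV6 (ENSG00000139083, plus strand of GRCh38 chromosome 12, from 11649854 to 11895402) stood at 99.5, 39.1 and 117 CPM in knockout EV replicates 1, 2 and 4. They reached 2089, 1351 and 1636 CPM in the 3 R369W libraries and 1784, 2377 and 1748 CPM in the 3 ETV6 libraries. Both vectors thus raised ETV6 reads in every library, and the R369W and ETV6 ranges overlapped. The rise with R369W was 19.9-fold (log2 4.31, SE 0.38, edgeR adjusted p = 1.18e-04). R369W and ETV6 cells differed by -0.22 on the log2 scale (95% interval -0.92 to 0.49, adjusted p = 0.873). Unedited EV cells read 66.0, 77.8 and 145 CPM for ETV6, a range that overlapped knockout EV. A count per gene cannot tell a vector transcript from an endogenous one or R369W from ETV6, and it does not show the edit.

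Few genes passed the threshold between R369W and EV. Of 12262 genes tested, 1695 (13.8%) had an unadjusted edgeR p under 0.05, and 7 (0.0571%) passed an adjusted p of 0.05. Of these 7, ETV6 rose, and FCHSD2, EZH2, ZDHHC3, CD79A, MIB1 and LNPEP fell. When the 6 libraries were fitted alone, without the spread of the other groups, none of the 7 passed (edgeR adjusted p = 0.138 to 0.483, with 1193 genes at an unadjusted p under 0.05). ETV6 over the same EV libraries passed for 224 genes (1.83%), 31 higher and 193 lower. The 2 comparisons share their EV libraries, so the direct test is the one between R369W and ETV6 cells, in which 151 genes passed (1.23%), 131 higher (1.07%) and 20 lower (0.163%) with R369W. DESeq2 called 195 genes for R369W over EV (1.59%), 42 higher and 153 lower, and limma-voom called 10, 1 higher and 9 lower. The GC content of the genes behind the larger DESeq2 count is described after the gene lists.

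**Figure D1:**
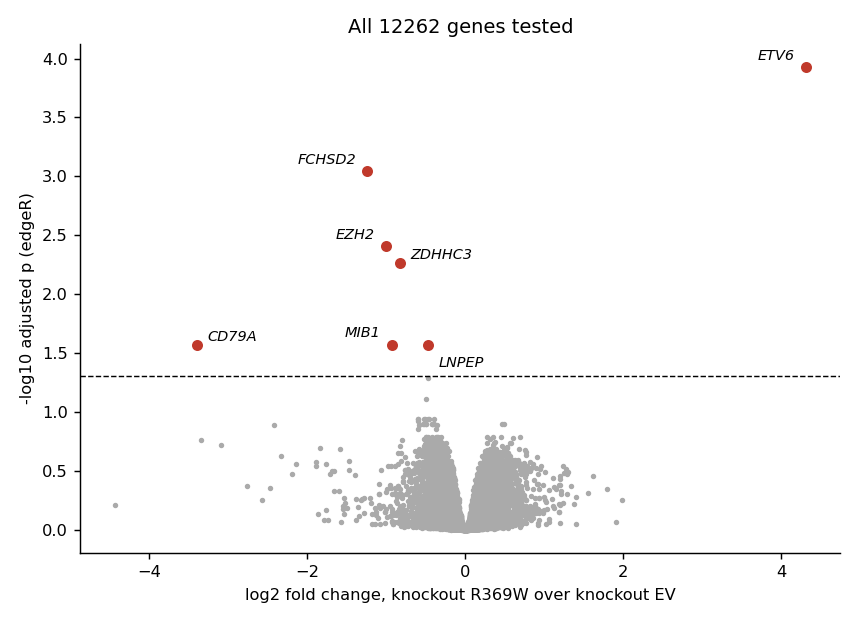
Each point is 1 of the 12262 genes tested, with the log2 fold change of knockout R369W over knockout EV on the x axis and -log10 of the edgeR adjusted p on the y axis. The dashed line is the threshold of 0.05, and the 7 genes above it are named: ETV6 at log2 4.31 on the right and 6 genes on the left.

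To show the DNA next to some of these genes, 250 bases before the RefSeq start site (GRCh38.p14) are printed for 2 genes that fell with R369W and for 2 genes that R369W left high and ETV6 did not. They were chosen after their values were seen, as pairs of which 1 holds a longer ETS core and 1 does not. Capitals mark GGAAG on either strand (CTTCC on the printed strand is its complement), and each line is read 5′ to 3′ on the gene's strand.
FCHSD2 (chr11:73142319-73142568, minus strand): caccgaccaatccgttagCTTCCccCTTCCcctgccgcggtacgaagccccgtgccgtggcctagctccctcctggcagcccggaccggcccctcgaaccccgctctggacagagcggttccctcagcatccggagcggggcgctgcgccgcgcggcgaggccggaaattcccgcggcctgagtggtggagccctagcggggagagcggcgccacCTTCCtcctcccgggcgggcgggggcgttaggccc
ZDHHC3 (chr3:44976175-44976424, minus strand): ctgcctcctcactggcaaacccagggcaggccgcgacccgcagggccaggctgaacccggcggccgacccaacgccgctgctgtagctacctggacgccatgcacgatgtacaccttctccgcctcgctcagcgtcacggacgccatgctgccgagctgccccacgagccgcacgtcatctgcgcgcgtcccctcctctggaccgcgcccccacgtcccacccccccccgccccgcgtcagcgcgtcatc
BIRC7 (chr20:63235655-63235904, plus strand): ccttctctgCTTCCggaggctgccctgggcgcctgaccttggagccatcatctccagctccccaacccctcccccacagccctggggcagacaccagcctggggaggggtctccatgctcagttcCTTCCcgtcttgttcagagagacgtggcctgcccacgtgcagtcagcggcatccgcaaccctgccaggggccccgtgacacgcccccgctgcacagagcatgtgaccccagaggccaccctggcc
KRT9 (chr17:41572060-41572309, minus strand): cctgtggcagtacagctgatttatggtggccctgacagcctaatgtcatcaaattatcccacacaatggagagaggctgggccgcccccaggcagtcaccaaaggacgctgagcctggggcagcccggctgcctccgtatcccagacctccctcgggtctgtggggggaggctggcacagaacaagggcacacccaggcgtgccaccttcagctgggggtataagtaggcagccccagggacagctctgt
The FCHSD2 window held 3 GGAAG matches and the ZDHHC3 window 0. The EZH2 gene has 2 RefSeq windows with 1 match each, CD79A had 2 matches, MIB1 had 1, and the 2 windows of LNPEP had 1 and 0. Of the genes left high, BIRC7 had 2 matches, 1 of them in the longer CCGGAAG, LMTK3 had 1, the 3 windows of CLIC5 had 0, 1 and 2, and KRT9 and MYT1 had 0. Over 35114 RefSeq windows of this length, GGAA occurred in 92.7%, GGAAG in 65.1% and CCGGAAG in 8.52%, counted on both strands, with each longer match also counted as a shorter one. A match is a description of these letters only and says nothing of binding.

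FCHSD2, an adaptor with F-BAR and SH3 domains that acts on membranes and actin, read 287, 193 and 277 CPM in the EV libraries and 106, 105 and 108 CPM with R369W. All 3 R369W libraries were lower than every EV library and lay within a few CPM of each other. The fall was 2.37-fold (log2 -1.25, SE 0.14, edgeR adjusted p = 9.05e-04). With ETV6 the 3 libraries read 64.8, 60.3 and 60.4 CPM, 1.72-fold under the R369W mean (R369W over ETV6, log2 0.78, SE 0.14, adjusted p = 0.00695). Unedited EV cells read 39.6 to 55.1 CPM.

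ZDHHC3, a Golgi enzyme that attaches palmitate to proteins, read 263, 226 and 252 CPM with EV and 139, 130 and 149 CPM with R369W, with no overlap. The fall was 1.78-fold (log2 -0.83, SE 0.11, edgeR adjusted p = 0.00545). ETV6 cells read 98.8, 94.3 and 81.8 CPM, below all 3 R369W libraries, and R369W cells were 1.52-fold above them (adjusted p = 0.00984). Leaving out EV replicate 1 or R369W replicate 2 ended the call over EV (adjusted p = 0.0536 and 0.0648), and that over ETV6 ended without ETV6 replicate 4 (0.0752).

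EZH2, the methyltransferase of Polycomb repressive complex PRC2, read 233, 237 and 244 CPM with EV and 132, 121 and 102 CPM with R369W. The EV libraries lay close together, well above every R369W library. The fall was 2.01-fold (log2 -1.01, SE 0.13, edgeR adjusted p = 0.00389). ETV6 cells read 86.5, 87.3 and 95.6 CPM, below each R369W library, but the difference did not pass (log2 0.40, 95% interval 0.13 to 0.67, adjusted p = 0.176). Unedited EV cells read 83.2 to 107 CPM.

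CD79A, a signalling chain of the B cell receptor, had the largest fall of the 6 genes. It read 15.5, 10.4 and 9.42 CPM with EV and 1.08, 0.843 and 1.41 CPM with R369W. The fall was 10.5-fold (log2 -3.40, SE 0.54, edgeR adjusted p = 0.0271). ETV6 cells read 0.453, 0.384 and 0.595 CPM, lower still in each library, and the difference from R369W did not pass (log2 1.20, 95% interval 0.00 to 2.40, adjusted p = 0.401). The R369W value rests on 44 reads in 3 libraries, against 557 with EV, and the call was lost without any 1 of the 6 libraries (adjusted p = 0.0722 to 0.291) while the fall stayed between -3.60 and -3.15. MS4A1, a defining B cell gene, had 0 reads in all 18 libraries.

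MIB1, a ubiquitin ligase that acts on Notch ligands, read 422, 443 and 468 CPM with EV and 290, 197 and 213 CPM with R369W. LNPEP, a membrane aminopeptidase of the insulin-regulated vesicles, read 142, 134 and 142 CPM with EV and 108, 92.4 and 100.4 CPM with R369W. Both groups stood apart in both genes. MIB1 fell 1.90-fold (log2 -0.93, SE 0.14) and LNPEP 1.39-fold (log2 -0.47, SE 0.08), with edgeR adjusted p = 0.0268 and 0.0271. With ETV6, MIB1 read 201 to 284 CPM and LNPEP 99.5 to 105 CPM, and R369W and ETV6 cells differed by 0.01 (95% interval -0.30 to 0.31) and -0.01 (-0.17 to 0.15) on the log2 scale. Both calls were lost in edgeR with a correction for GC content, and without 5 of the 6 libraries in turn (all but R369W replicate 1; adjusted p up to 0.217 for MIB1 and 0.227 for LNPEP).

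All 6 genes were higher in knockout EV cells than in unedited EV cells, by log2 values from 0.41 for LNPEP and 0.68 for MIB1 through 1.29 for EZH2, 1.95 for ZDHHC3 and 2.41 for FCHSD2 to 5.26 for CD79A. Each of these passed, where 3.31% of all genes were called higher (edgeR adjusted p from 1.78e-07 for FCHSD2 and ZDHHC3 to 0.0129 for MIB1). This comparison uses the same knockout EV libraries, so a high EV value enters both and the values are set side by side as a description. In unedited cells, where the cell's own ETV6 is not edited, R369W over EV gave log2 0.19 for FCHSD2, 0.12 for EZH2, 0.24 for ZDHHC3, 0.30 for CD79A, -0.07 for MIB1 and -0.11 for LNPEP, and none of the 6 passed in edgeR, DESeq2 or limma-voom. Over all genes 0.0245% passed in edgeR, 2.02% had an unadjusted p under 0.05 and 0.106% passed in DESeq2. The difference between the R369W effect in knockout and in unedited cells passed for FCHSD2 (-1.43, adjusted p = 0.0118), ZDHHC3 (-1.07, adjusted p = 0.0171) and EZH2 (-1.12, adjusted p = 0.0364). They are 3 of 5 genes that passed that test (0.0408% of those tested). That test contains the knockout comparison by which the 6 genes were picked, so their passing is no separate support.

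**Figure D2:**
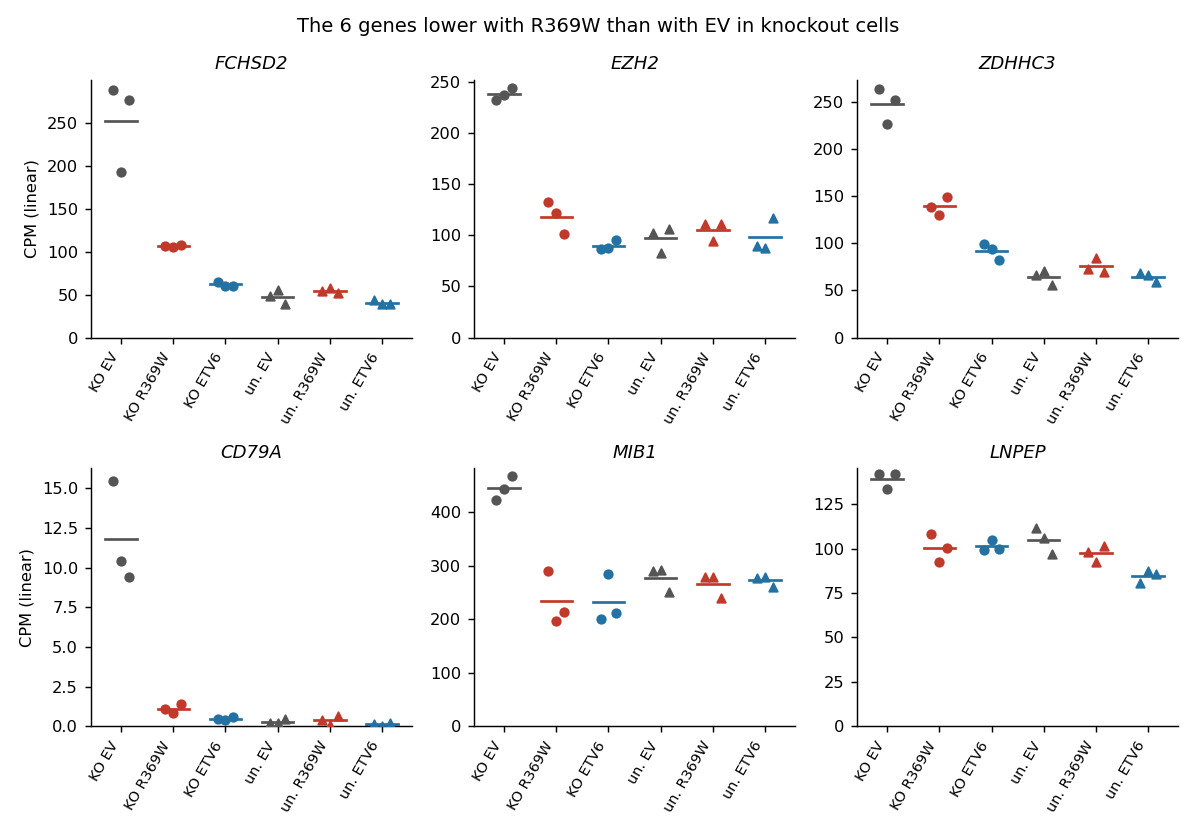
Level of each of the 6 genes in CPM (linear axis from 0) in every library, circles for knockout (KO) and triangles for unedited (un.) cells, with a line at the mean of 3 libraries. In each panel the 3 KO EV libraries are the highest. For FCHSD2, ZDHHC3, EZH2 and CD79A the KO R369W libraries sit between KO EV and KO ETV6, and the difference from KO ETV6 passed for FCHSD2 and ZDHHC3 only.

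Just outside the threshold was CHD9, a chromatin remodeller, at 137, 143 and 146 CPM with EV and 113, 98.0 and 96.9 CPM with R369W (log2 -0.47, edgeR adjusted p = 0.0516, limma-voom 0.0387). Its transcript has 38.4% GC. With the GC correction CHD9 moved to -0.25 and passed in neither edgeR nor DESeq2 (DESeq2 adjusted p = 0.794). A pair of genes with larger falls was called by limma-voom and not by edgeR. CXCR4, the chemokine receptor for CXCL12, read 20.9, 11.8 and 20.5 CPM with EV and 6.16, 4.98 and 6.53 CPM with R369W (log2 -1.59, limma-voom adjusted p = 0.0285, edgeR adjusted p = 0.206). DSC3, a desmosomal cadherin, read 77.4, 28.6 and 49.6 CPM with EV and 7.39, 7.74 and 13.8 CPM with R369W (log2 -2.43, limma-voom adjusted p = 0.0188, edgeR adjusted p = 0.128). ETV6 cells read 2.72 to 3.35 CPM for CXCR4 and 2.07 to 5.51 CPM for DSC3, below every R369W library. These 3 genes were chosen after their values were seen.

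The genes that separate R369W from ETV6 most in knockout cells stayed near the EV level with R369W. CLIC5, a chloride intracellular channel protein tied to the cortical actin skeleton, read 231, 196 and 250.2 CPM with EV, 165, 180 and 147 CPM with R369W and 0.906, 1.30 and 0.968 CPM with ETV6. The level with R369W was 154-fold that with ETV6 (log2 7.26, SE 0.61, edgeR adjusted p = 4.38e-05). Over EV the value was -0.46 (95% interval -1.36 to 0.44), with each R369W library below each EV library. The interval leaves room for a fall of up to 1.36 on the log2 scale, far short of the 7.72 by which CLIC5 fell with ETV6.

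MYT1, a zinc finger transcription factor of neural cells, read 15.8, 12.6 and 9.42 CPM with EV, 12.6, 12.3 and 13.7 CPM with R369W and 0.302, 0.153 and 0.0744 CPM with ETV6. LMTK3, a kinase of the lemur family, read 58.2, 34.5 and 60.7 CPM with EV and 33.5, 64.3 and 31.4 CPM with R369W, against 0.690 to 0.968 CPM with ETV6. In both genes the EV and R369W ranges overlapped and every ETV6 library was far below. Over ETV6 the log2 differences were 6.11 for MYT1 and 5.64 for LMTK3 (edgeR adjusted p = 4.43e-05 and 4.79e-05). Over EV they were 0.02 (95% interval -0.79 to 0.84) and -0.25 (-1.15 to 0.65).

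BIRC7, an inhibitor of apoptosis, read 67.3, 26.6 and 41.1 CPM with EV, 35.0, 55.3 and 51.9 CPM with R369W and 1.89, 1.23 and 0.670 CPM with ETV6. KRT9, a keratin of palm and sole skin, read 39.4, 20.6 and 12.5 CPM with EV, 22.1, 14.5 and 45.1 CPM with R369W and 0.528, 1.46 and 0.298 CPM with ETV6. Spread within the EV and R369W groups was wide, and the gap to ETV6 was wider still. R369W exceeded ETV6 by 5.22 for BIRC7 and 5.15 for KRT9 (edgeR adjusted p = 3.19e-04 and 0.00568). Over EV the values were 0.07 (95% interval -0.89 to 1.04) and 0.17 (-1.13 to 1.47).

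**Figure D3:**
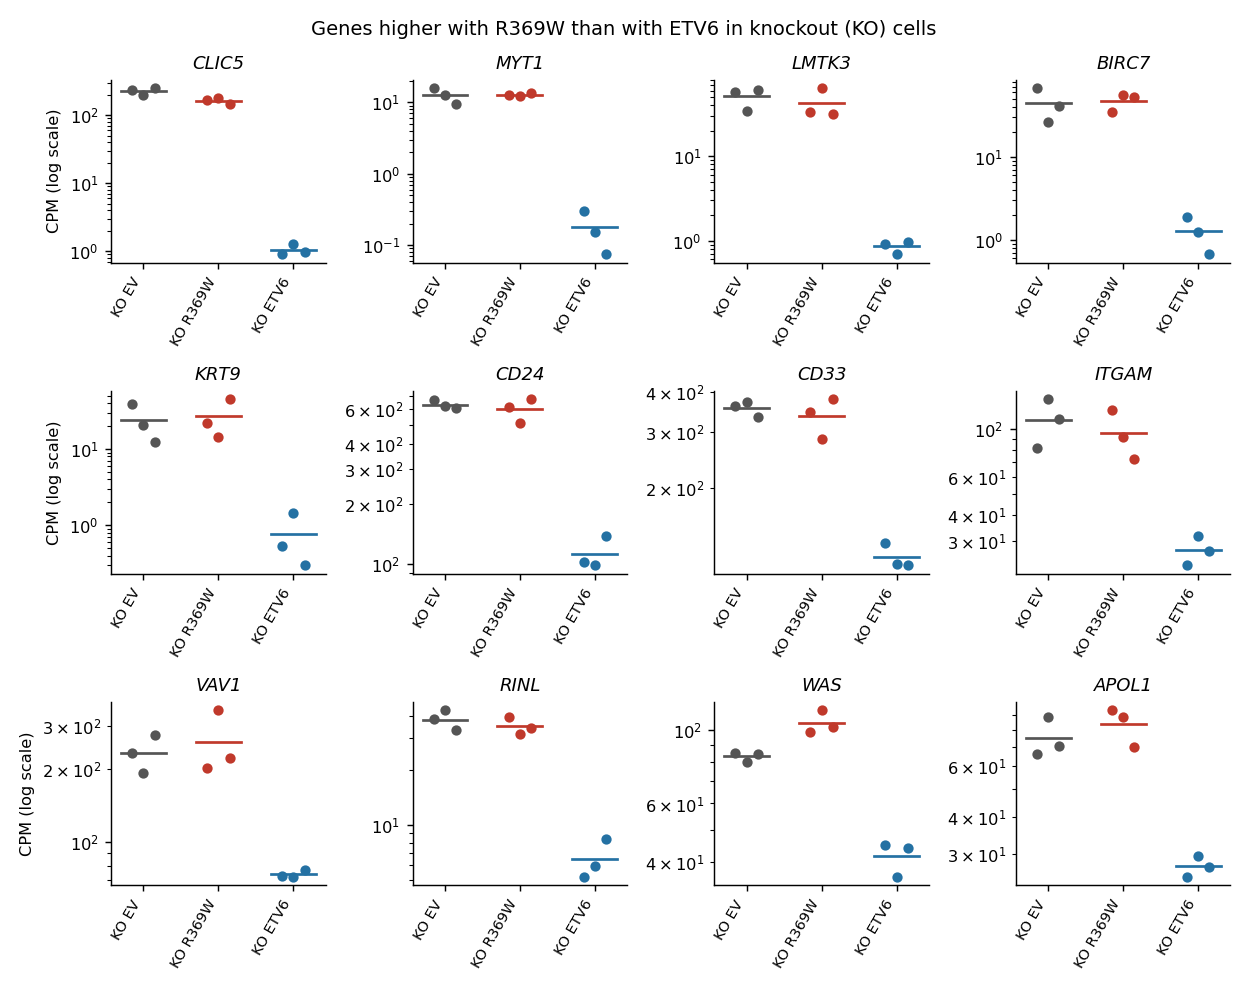
Level in CPM (log axis) in each knockout (KO) library for 12 genes that were higher with R369W than with ETV6, with a line at the mean of 3 libraries. In each panel the 3 ETV6 libraries lie below all 3 R369W libraries, and in 10 of the 12 panels, all but CLIC5 and WAS, the R369W and EV points overlap.

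Further members of the gene lists that passed between R369W and ETV6 cells are given next, by a rule set after the values were seen. In the myeloid list, CD33, a sialic acid receptor, read 362, 372 and 335 CPM with EV, 346, 285 and 380 CPM with R369W and 135, 117 and 115 CPM with ETV6. ITGAM, an integrin chain of phagocytes, read 81.5, 138 and 111 CPM with EV, 123, 92.3 and 72.3 CPM with R369W and 23.2 to 31.7 CPM with ETV6. For both, EV and R369W overlapped. R369W cells were 2.76-fold above ETV6 cells for CD33 and 3.52-fold for ITGAM (edgeR adjusted p = 9.49e-06 and 7.07e-04), and over EV the log2 values were -0.08 (95% interval -0.32 to 0.16) and -0.20 (-0.68 to 0.28).

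In the B-lymphoid list, CD24, a small glycosylated surface protein whose reads may be shared with its copies in the genome, read 663, 621 and 604 CPM with EV, 616, 507 and 671 CPM with R369W and 98.3 to 138 CPM with ETV6. RAG2, a subunit of the V(D)J recombinase, read 10.3, 7.39 and 6.74 CPM with EV, 8.78, 6.66 and 13.4 CPM with R369W and 1.61 to 3.09 CPM with ETV6. CD24 was 5.31-fold and RAG2 4.28-fold higher with R369W than with ETV6 (edgeR adjusted p = 4.90e-04 and 0.0231), and RAG2 was lost without ETV6 replicate 2 or 4 or R369W replicate 4 (adjusted p up to 0.126). Both lay near EV with R369W (log2 -0.07 for CD24 and 0.23 for RAG2), whereas CD79A of the same list fell.

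Among immune signalling genes, VAV1, an exchange factor for small GTPases, read 233, 193 and 276 CPM with EV, 203, 349 and 223 CPM with R369W and 72.3 to 77.0 CPM with ETV6. RINL, a Rab5 exchange factor, read 38.3, 42.8 and 33.2 CPM with EV, 39.1, 31.6 and 34.4 CPM with R369W and 5.21 to 8.41 CPM with ETV6. R369W exceeded ETV6 by 1.80 for VAV1 and 2.42 for RINL on the log2 scale (edgeR adjusted p = 3.19e-04 and 9.49e-06). PIK3CG and PIK3R5, the catalytic and a regulatory chain of PI3 kinase gamma, and SYK, a tyrosine kinase of immune receptors, were higher by 1.08, 1.85 and 0.90 (adjusted p = 4.79e-05, 0.00743 and 0.00109). PIK3CG read 107 to 113 CPM with R369W, below the 125 to 131 CPM of EV in every library, with a log2 value of -0.23 that did not pass (95% interval -0.46 to -0.01, unadjusted p = 0.0407, adjusted p = 0.338).

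Of genes that act in platelets, NBEAL2, which is needed to form alpha granules, read 307, 263 and 292 CPM with EV, 329, 347 and 312 CPM with R369W and 197, 173 and 186 CPM with ETV6. WAS, which links small GTPases to actin, read 85.2, 80.2 and 84.6 CPM with EV, 98.4, 115 and 102 CPM with R369W and 36.1 to 44.8 CPM with ETV6. Every R369W library lay above every EV library in both genes, but neither passed (log2 0.20 and 0.34, unadjusted p = 0.0897 and 0.0317, adjusted p = 0.443 and 0.320). Their transcripts have 62.4% and 60.6% GC. Genes with transcripts from 57.8% GC upward had a median log2 change of 0.27 for R369W over EV. The value of NBEAL2 was below that median and that of WAS above it. The part of GC content in these values was not tested. Over ETV6 the differences for NBEAL2 and WAS were 0.83 and 1.34 (edgeR adjusted p = 7.80e-04 and 1.46e-04). RAB32, a GTPase of dense granule formation, was 0.93 higher than with ETV6 (adjusted p = 3.52e-04).

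Further list members higher with R369W than with ETV6 were APOL1, ICAM1, IFITM2 and TNFRSF1A of the interferon, NF-kB target and cytokine receptor lists, by 1.63, 2.18, 1.22 and 0.65 on the log2 scale (edgeR adjusted p = 4.38e-05, 0.00327, 0.00798 and 0.0166), with TMCC2, an erythroid coiled-coil protein, and RASGRP4, a Ras exchange factor, by 2.31 and 2.08 (adjusted p = 0.00798 and 0.0228). TNFRSF1A was lost without ETV6 replicate 1 or R369W replicate 2 and with the GC correction (adjusted p = 0.0742, 0.0768 and 0.102), RASGRP4 without 4 of the 6 libraries (up to 0.119), and TMCC2 and IFITM2 without ETV6 replicate 4 (0.0510 and 0.0571). None of these 6 genes passed for R369W over EV, and their log2 values ran from -0.31 for ICAM1 to 0.37 for RASGRP4.

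Other genes were lower with R369W than with ETV6. SGK1, a serum and glucocorticoid kinase, read 2.97, 1.68 and 3.14 CPM with EV, 2.16, 3.29 and 1.93 CPM with R369W and 8.98, 6.90 and 9.30 CPM with ETV6. NR4A2, an orphan nuclear receptor, read 16.4, 15.5 and 17.1 CPM with EV, 19.1, 21.2 and 16.2 CPM with R369W and 34.7 to 39.2 CPM with ETV6. SLC20A1, a phosphate transporter, read 132 to 173 CPM with EV, 148 to 191 CPM with R369W and 263 to 337 CPM with ETV6. With R369W each overlapped EV, and R369W cells were lower than ETV6 cells by log2 values of -1.77, -0.96 and -0.85 (edgeR adjusted p = 0.00327, 0.00571 and 0.00391).

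WNT7A, a secreted WNT ligand, lay at 0.153 to 0.770 CPM with R369W, 0.153 to 0.457 CPM with EV and 1.49 to 7.90 CPM with ETV6 (log2 -2.91 against ETV6, edgeR adjusted p = 0.0195). It rested on 21 reads with R369W and was lost without ETV6 replicate 2, R369W replicate 2 or R369W replicate 4 (adjusted p up to 0.0915), in limma-voom (0.194), in the 6 libraries alone (0.276) and in the 9 knockout libraries (0.167). SPRED1, an inhibitor of Ras signalling, was lower with R369W than with either other vector, at 25.9, 21.4 and 31.3 CPM against 40.3, 35.3 and 38.5 CPM with EV and 47.6, 53.5 and 44.7 CPM with ETV6. It passed against ETV6 (log2 -0.89, adjusted p = 0.00798) and not against EV (-0.54, 95% interval -0.87 to -0.20, unadjusted p = 0.00397, adjusted p = 0.223). The SPRED1 transcript has 38.9% GC. Genes up to 40.7% GC had a median log2 change with R369W of -0.23 over EV and -0.13 over ETV6. The call of SPRED1 against ETV6 held with the GC correction. The part of GC content in its value over EV was not tested. GABPB1, a subunit of the ETS factor GABP, and DIAPH1, an actin-nucleating formin, were lower with R369W than with ETV6 by -0.57 and -0.35 (adjusted p = 0.00259 and 0.00571). With the 6 R369W and ETV6 libraries fitted alone, SGK1, SLC20A1, SPRED1, GABPB1, DIAPH1, ZDHHC3, RAG2 and TNFRSF1A no longer passed (adjusted p = 0.0531 to 0.161).

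Of 26 gene lists, 2 had a member that passed for R369W over EV: the ETS factors, through ETV6, and the B-lymphoid genes, through CD79A. Of 38 tested megakaryocyte and platelet genes, edgeR, DESeq2 and limma-voom called 0 and 0 had an unadjusted p under 0.05, where 13.8% of all genes did. Over all genes that number fell from 1695 to 694 of 12401 tested without R369W replicate 2, and to 431 of 12262 with the GC correction. The median log2 change of the megakaryocyte and platelet genes was 0.03, or -0.03 with the GC correction. LAT, an adaptor of collagen receptor signalling, and PLEK, pleckstrin, were nearest to passing on the higher side (log2 0.19 and 0.30, edgeR unadjusted p = 0.0910 and 0.130). Myeloid genes (21 tested) had a median of -0.05 and 0 called by any of the 3 tools or at an unadjusted p under 0.05, and erythroid genes (37 tested) had a median of -0.00 with 0 called by any of the 3 tools and 3 higher at an unadjusted p under 0.05, among them ICAM4, a red cell adhesion protein, at log2 0.39. The ICAM4 transcript has 59.7% GC, and its value lay between 0.13 and 0.48 over the alternatives. With ETV6 over the same EV libraries the medians of the megakaryocyte and platelet, myeloid and erythroid lists were 0.29, -0.98 and 0.13. The median of all 12262 genes was -0.00 in both comparisons. The count filter kept 21 of 39 myeloid and 8 of 20 B-lymphoid genes, and a gene may pass that filter by its level in 1 group alone.

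Cholesterol synthesis had the highest list median with R369W. Of 25 genes, 21 were above 0, the median was 0.30, and 8 had an unadjusted p under 0.05, all higher, where 6.56% of all genes were, among them MVD (25.5 to 49.6 CPM on average, log2 0.96), TM7SF2 (log2 0.68), LSS (0.47) and FDFT1 (0.24), enzymes of the path from mevalonate to cholesterol. None was called by edgeR over all genes (adjusted p = 0.286 or more), and DESeq2 and limma-voom called 0. With the GC correction the median was 0.25 and 1 of the 25 genes had an unadjusted p under 0.05, where 431 of all 12262 genes did with that correction. The heat shock and immediate-early list had a median of 0.27 with 0 of 28 genes called by the 3 tools, 4 higher and 1 lower at an unadjusted p under 0.05 (7.27% of all genes were lower), and 0.15 with the correction. Both medians were above 0 with ETV6 as well (0.24 and 0.40), over the same EV libraries.

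**Figure D4:**
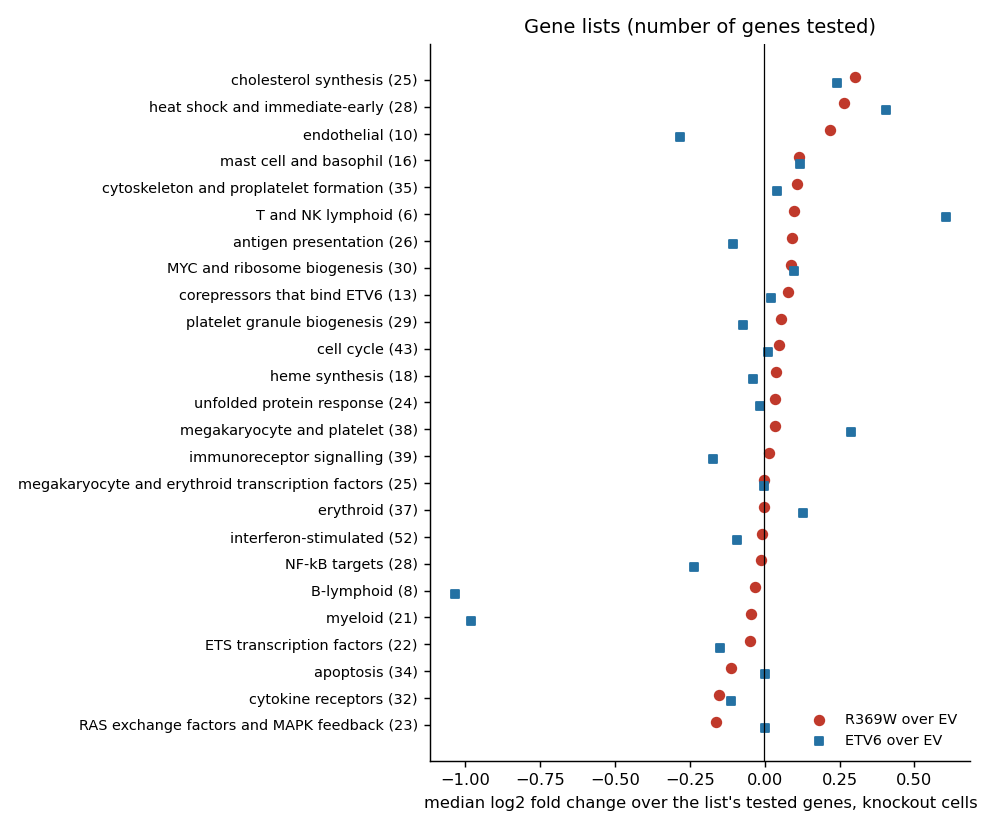
Median log2 fold change of each gene list in knockout cells (x axis), circles for R369W over EV and squares for ETV6 over EV, with the number of genes tested in brackets and a line at the median of all genes for R369W over EV. With R369W the list medians run from -0.16 to 0.30, and with ETV6 the myeloid and B-lymphoid medians lie at -0.98 and -1.03.

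Many small differences between R369W and EV followed the GC content of the transcripts. Among the 20% of genes with the lowest GC, up to 40.7%, the median log2 change was -0.23, and 654 genes were lower and 6 higher at an unadjusted p under 0.05. Among the 20% with the highest GC, from 57.8%, the median was 0.27, with 490 higher and 6 lower. The same slope was smaller with ETV6 over EV, at -0.10 and 0.09. That highest group took 13.2% to 14.2% of the reads of tested genes in the EV libraries, 15.0% and 15.2% in R369W replicates 4 and 1, and 17.9% in R369W replicate 2. Without R369W replicate 2 the genes at an unadjusted p under 0.05 dropped in number from 1695 to 694.

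Of the 153 genes that DESeq2 called lower, 137 were in the lowest GC group, and of the 42 it called higher, 28 were in the highest. With each library's trend on GC taken out, a setting added after the data were seen, edgeR called 5 genes and DESeq2 17, 8 higher and 9 lower. The 5 were ETV6, FCHSD2, EZH2, ZDHHC3 and CD79A, with log2 values of 4.31, -1.18, -0.90, -0.93 and -3.61 (edgeR adjusted p = 1.84e-04, 0.00278, 0.00451, 0.00202 and 0.0287). MIB1 and LNPEP moved to -0.70 and -0.27 and no longer passed in edgeR (adjusted p = 0.595 and 0.780), though MIB1 did in DESeq2 (adjusted p = 0.0122). MIB1 and LNPEP have transcripts of 37.7% and 38.8% GC and ZDHHC3 of 53.0%. DSC3, CXCR4 and E2F6 were among the 9 lower genes in DESeq2 (adjusted p = 0.0204, 0.0436 and 0.0496). The part of GC content in the results was not tested beyond this correction.

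**Figure D5:**
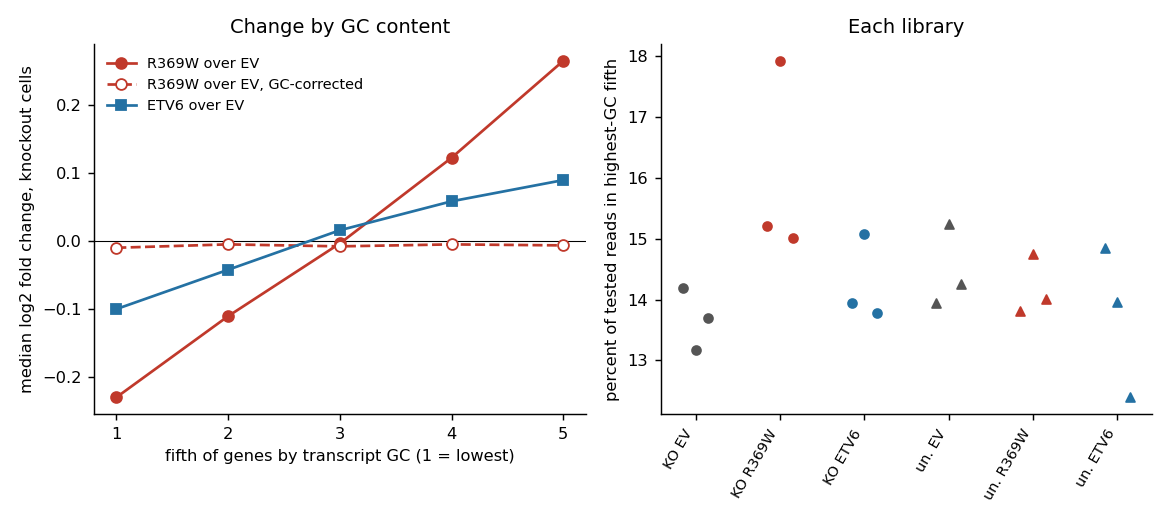
Left, median log2 fold change in knockout cells (y axis) for 5 equal groups of genes by transcript GC (x axis), for R369W over EV, the same after the GC correction, and ETV6 over EV; the corrected line is flat by construction. Right, the percent of reads of tested genes that fell in the highest GC group for each library, where R369W replicate 2 in knockout (KO) cells is the highest at 17.9%.

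SLFN11, FYB1 and NOVA2 varied widely among the libraries of a vector in knockout cells. SLFN11, a nuclease that blocks replication under stress, read 70.6, 7.84 and 86.8 CPM with EV and 7.01, 71.2 and 65.2 CPM with R369W, against 53.6, 4.91 and 66.0 CPM with ETV6. FYB1, an adaptor of T cells and platelets, read 186, 46.8 and 193 CPM with EV and 33.7, 122 and 126 CPM with R369W, against 89.3, 13.1 and 96.2 CPM with ETV6. NOVA2, a neuronal splicing factor, read 111, 38.8 and 88.3 CPM with EV and 36.9, 93.9 and 94.98 CPM with R369W, against 23.5, 8.74 and 18.0 CPM with ETV6. In all 3 genes EV replicate 2, R369W replicate 1 and ETV6 replicate 2 were the low libraries of their groups. None passed for R369W over EV (edgeR adjusted p = 0.966, 0.752 and 0.976). NOVA2, a member of the list from the earlier knockout comparison, passed for R369W over ETV6, with every ETV6 library below every R369W library (log2 2.17, SE 0.47, edgeR adjusted p = 0.0442). That call was lost in 10 of 16 alternatives (adjusted p up to 0.197), among them leaving out any ETV6 library or R369W replicate 2 or 4. SLFN11 and FYB1 did not pass over ETV6 (adjusted p = 0.967 and 0.841). The 95% intervals over EV are wide, from -2.17 to 1.76 for SLFN11, -1.97 to 0.77 for FYB1 and -1.03 to 0.88 for NOVA2. PAX5, a B cell transcription factor, was at 3.66 CPM in EV replicate 2 and 3.62 CPM in R369W replicate 1 and at most 0.0766 CPM in the other 4.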

How the data were processed

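The authors deposited raw counts, whole reads per gene, of 20833 gene identifiers for 18 libraries, 3 in each of 6 groups. Per the submitters' processing notes, HISAT2, SAMtools and HTSeq were used with GRCh38. The sources used here do not give versions, annotation or strand setting. Per the labels' protocols, RNA was isolated with TRIzol and libraries followed the TruSeq stranded mRNA protocol. The 5 HTSeq rows of reads given to no gene (34.4% to 41.6% of listed reads) stayed out of library sizes and tests. Gene reads ran from 12577816 to 18927506 per library, so a count of 0, taken as up to 3 reads, allows 0.156 to 0.246 CPM, for counting error only.

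Genes were kept by filterByExpr (12262), scaled by TMM and fitted with edgeR 4.0.16 in R 4.3.3, 1 mean per group over all 18 libraries. P-values of the two-sided quasi-likelihood F test were adjusted over the whole table (Benjamini-Hochberg) and 0.05 was the cut-off. SE, the standard error, is the size of the log2 fold change over the root of its F. The pipeline was tested on simulated data. With 3 libraries a group, 0.1 is the smallest two-sided p that exact permutation allows, and no such test was used. Alternatives were RLE size factors, no count filter, DESeq2 1.42.0, limma-voom (limma 3.58.1), fewer libraries, a replicate block, each library left out and, added after the data were seen, GC and length corrections (lowess trends on exon GC and length from GENCODE release 29, in edgeR, and on GC in DESeq2). DESeq2 gave no adjusted p for some genes, CD79A among them; these count as not called.

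Named genes are ETV6; up to 12 rises and 12 falls past the threshold for R369W over EV averaging 1 or more in log2 CPM and no overlap between groups; up to 4 members of each list past the threshold; and up to 5 in each direction against ETV6 and in the interaction. The conditions on threshold, level and overlap held also for the genes picked against ETV6, and without that on overlap for the interaction. Other genes were chosen after their values were seen, apart from cell type markers and the list from the earlier knockout comparison. This holds also for LAT, PLEK, E2F6, MVD, TM7SF2, LSS and FDFT1, where it is not said beside them. Members and lists were chosen with earlier results of these data known. Some withheld items are not reported here.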

Additional observations from a re-analysis of the deposited data

Results flagged for a closer look

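The R369W effect differed between knockout and unedited cells for 5 genes in edgeR's interaction test (adjusted p under 0.05) and for all 5 the log2 change with R369W was lower in knockout cells than in unedited cells. DESeq2 called 14 genes, limma-voom 4, and 520 had an unadjusted edgeR p under 0.05. MYT1 had a difference of -6.89 on the log2 scale (adjusted p = 0.0108). The 3 unedited R369W libraries held 149 MYT1 reads and the 3 unedited EV libraries 1, which is 166 times after scaling (29.3 to 6602, 95% interval for counting error), so its fitted value depends on the prior count and is no bound. It read 2.72 to 6.02 CPM with R369W in those 3 libraries, and in knockout cells 9.42 to 15.8 CPM with EV and 12.3 to 13.7 CPM with R369W. CLIC5 had a difference of -6.54 (adjusted p = 0.0171). It rose in unedited cells from 0.0615 to 0.529 CPM with EV to 3.80 to 26.4 CPM with R369W (log2 6.08, edgeR adjusted p = 0.00738), and was lower in each knockout R369W library than in each knockout EV library without passing. In limma-voom neither CLIC5 call held (adjusted p = 0.999 for the interaction and 1.00 for the rise in unedited cells), and the 12 libraries alone ended the interaction call of CLIC5, FCHSD2, ZDHHC3 and EZH2 (0.0974 for each).

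The other 3 genes fell with R369W in knockout cells and did not pass in unedited cells: FCHSD2 with a difference of -1.43 (adjusted p = 0.0118), ZDHHC3 with -1.07 (adjusted p = 0.0171) and EZH2 with -1.12 (adjusted p = 0.0364). Each call is lost without some libraries: EZH2 without any 1 of 11 of the 12 (adjusted p up to 0.135), CLIC5 without 8 (up to 0.0996), ZDHHC3 without 7 (up to 0.0832), FCHSD2 without 3 (up to 0.0590) and MYT1 without knockout R369W replicate 2 (0.0590). The directions held in every alternative run.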

How the results depend on the processing

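For R369W over EV in knockout cells, 7 genes passed. DESeq2 called 195, DESeq2 with GC correction 17, edgeR on the 6 libraries alone 0 (1193 with an unadjusted p under 0.05), and 3 to 11 passed with 1 library left out: 3 without EV replicate 1 or R369W replicate 2, 4 without EV replicate 2, EV replicate 4 or R369W replicate 4, and 11 without R369W replicate 1. For R369W against ETV6 the count of 151 became 362 in DESeq2, 297 in DESeq2 with GC correction, 73 in the 6 libraries alone and 89 to 130 with 1 left out (91, 100 and 89 without ETV6 replicate 1, 2 or 4). The interaction count of 5 became 14 in DESeq2, 10 in DESeq2 with GC correction, 1 in its 12 libraries alone, and 0 (without knockout R369W replicate 2) to 6 with 1 left out. RLE size factors, no filter, limma-voom and the edgeR GC and length corrections left the 3 counts within 1.5 times. The cause was not tested.

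Replicate numbers did not pair the R369W libraries: deviations from group means of same-numbered libraries correlated at -0.58 to -0.15 across genes with EV and ETV6, and each R369W library correlated best with another number (R369W 1 with EV 2 at 0.87, R369W 2 with EV 4 at 0.79, R369W 4 with EV 1 at 0.76), while EV and ETV6 correlated by number at 0.76 to 0.85. Whether the R369W libraries are numbered as the others is not known, and the block counts that follow rest on these numbers. A replicate block in the 9 knockout libraries left 0 genes for R369W over EV in edgeR (1540 had an unadjusted p under 0.05, and the other tools were run without a block) and 75 against ETV6, where these 9 without a block gave 5 and 134. In the interaction the block left 1.

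Some values that had not passed, or had passed over EV only, changed sign. For R369W over EV, leaving out 1 library at a time gave -0.14 to 0.22 for MYT1, -0.19 to 0.49 for BIRC7, -0.72 to 0.31 for SLFN11, -0.41 to 0.25 for NOVA2, -0.76 to 0.54 for CTSG, -0.28 to 0.078 for HLA-B, -0.26 to 0.51 for S1PR1, -0.55 to 0.061 for RASGRP3 and -0.27 to 0.57 for GYPB. Against ETV6 it gave -0.18 to 0.18 for MIB1 and -0.071 to 0.044 for LNPEP. With the GC correction, the GC and length correction and DESeq2 with GC correction, MYT1 was at -0.10, -0.10 and -0.11, BIRC7 at -0.25, -0.27 and -0.25, and LNPEP against ETV6 at 0.10, 0.082 and 0.10. With the replicate block SLFN11 was at 0.44 and NOVA2 at 0.066, and with no filter MIB1 against ETV6 was at -0.0018. The cause was not tested.

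The fit over 3 libraries a group had no pairing, and SLFN11, KRT9 and BIRC7 had wide intervals. These limit what can be said of R369W at these genes. Differences that libraries of different vectors share count as spread in such intervals, and a pairing by correlation was not tested. A p that misses the threshold does not show that R369W and EV act alike.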
